A study of Homo sapiens with 3 samples.

Results

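A set of 10 genes was followed in HT29 cells, an established human line derived from a colon adenocarcinoma, across 3 culture substrates. The genes were chosen by name as chemokines and response genes of the transcription factor NF-kB: the ligands CXCL1, CXCL2, CXCL3, CXCL8 and CCL20, the receptor CXCR4, the adhesion molecule ICAM1, and TNFAIP3, NFKBIA and BIRC3. They were read by 12 probes, of the 30004 probes that could be matched to 21614 genes and the 50599 probes in all. The cells had been grown on tissue culture polystyrene plates (TCP, titled 2D), on a chitosan membrane (CS) or on a chitosan membrane grafted with hyaluronan (CSHA, titled chitosan_HA). All conditions shared the cell line and the single-colour labelling with Cy3, and the labels give no further treatment and no time. There was 1 array per condition, and all 3 arrays lay on 1 slide. No difference between substrates therefore has a replicate check, no p-value is given, and 1 array shows neither how cultures differ nor how a membrane batch differs.

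Chemokines are small secreted proteins that steer migrating cells through receptors on the cell surface. CXCL1, CXCL2 and CXCL3, the GRO chemokines, and CXCL8 attract neutrophils through the receptors CXCR1 and CXCR2, and CCL20 attracts cells that carry CCR6. NF-kB dimers are held in the cytoplasm by inhibitors such as IkB-alpha, the product of NFKBIA, until the IKK kinases mark the inhibitor for degradation. The dimers then induce chemokines and adhesion molecules together with their own brakes, among them NFKBIA and TNFAIP3. Intestinal epithelial cells are a source of these chemokines in inflamed mucosa.

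The promoters of the GRO genes are shown first, since these genes are the members that were lower together on the membranes, with that of NFKBIA beside them. In the 250 bases before the start of each RefSeq gene (GRCh38.p14), both strands were searched for the NF-kB consensus motif of 10 bases, and overlapping matches on opposite strands were read as 1 place. The sequences run 5′ to 3′ on the strand of the gene, and capitals mark the bases that matched.
CXCL1, chr4:73869243-73869392, plus strand: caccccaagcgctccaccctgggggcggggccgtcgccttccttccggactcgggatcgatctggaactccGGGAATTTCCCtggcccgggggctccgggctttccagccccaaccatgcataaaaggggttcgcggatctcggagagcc
CXCL2, chr4:74099196-74099345, minus strand: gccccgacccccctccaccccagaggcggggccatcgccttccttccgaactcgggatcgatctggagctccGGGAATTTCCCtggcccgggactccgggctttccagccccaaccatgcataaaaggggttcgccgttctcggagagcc
CXCL3, chr4:74038690-74038839, minus strand: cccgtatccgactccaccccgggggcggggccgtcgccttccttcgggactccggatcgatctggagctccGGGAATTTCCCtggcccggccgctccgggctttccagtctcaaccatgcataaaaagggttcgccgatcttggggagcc
NFKBIA, chr14:35404750-35404899, minus strand: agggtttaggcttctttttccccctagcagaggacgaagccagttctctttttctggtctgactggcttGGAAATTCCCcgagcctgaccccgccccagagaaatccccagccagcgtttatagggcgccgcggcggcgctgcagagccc

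The GRO promoters carried the same match, GGGAATTTCC on the strand of the gene with an overlapping match on the other strand, between 79 and 68 bases before the start. Over these stretches CXCL1 and CXCL2 were identical at 88.7% of 151 aligned positions, CXCL1 and CXCL3 at 88.1%, and CXCL2 and CXCL3 at 86.1%. NFKBIA held 1 match, between 81 and 72 bases before its start. In all, 7 of the 10 genes had a match in the window, with CCL20, TNFAIP3 and BIRC3 as the others. Of their 12 promoter entries 7 had one, beside 5.21% of 35116 promoters of the same length. The genes were chosen as NF-kB response genes, so this higher share is not a result of these data. The letters were not found in the windows of CXCL8, ICAM1 and the 3 entries of CXCR4. This says nothing of sites elsewhere, or of sites in the windows that depart from the consensus. A match is a stretch of letters and not a site shown to be bound.

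The values are signals of single arrays, compared after a shift of each array's log2 signal by its 75th percentile, which was 354 units of signal for TCP, 423 for CS and 337 for CSHA. The error given with a difference is its spread among spots. This is the standard deviation for probes of like brightness printed 10 times, or the standard error for a member printed 10 times. It covers spots on an array and not cultures. The scanner software's own error of a difference was wider for the bright members, at 0.20 for the brightest, and narrower for the dim CXCL8 and TNFAIP3. A probe flagged as well above background on only 1 of the arrays compared gave a lower bound of the difference. This bound used the other array's lowest signal well above background. Where the probe's own signal there was higher, the plain difference was given, which is no bound. By these rules 7 of the 10 genes were measured on all arrays, and 8 had a value on CS against TCP, 9 on CSHA against TCP and 9 between the membranes. CCL20 was not well above background on any array.

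The members did not move as a block. The GRO ligands were lower on both membranes with the percentile shift, CXCR4 was the member with the highest difference on both, NFKBIA was higher on both by less, and ICAM1 and BIRC3 lay close to the median of all genes. On CS, 4 members were higher and 4 lower, beside 56.8% of 14464 genes that were higher. Their median log2 difference was -0.17 beside 0.04 over all genes, and it turned to 0.00651 without a filter on dim probes and to 0.017 over the 7 members measured on both arrays. On CSHA, 6 were higher and 3 lower, beside 61.7% of 14624 genes that were higher, with a median of 0.18 beside 0.13. Both comparisons used the same TCP array.

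No member had a value of at least 2-fold on CS or on CSHA. The share of all genes past that size was 1.37% upwards and 1.92% downwards on CS, and 3.02% upwards and 3.98% downwards on CSHA. CCL20 had no value on either membrane, and TNFAIP3 had none on CS. The values of CXCL8 on CS and of TNFAIP3 on CSHA were lower bounds, so the differences themselves may be larger. At 1.5-fold, CXCR4 was higher on CS, where 4.12% of all genes were. By the brightest probe no member had a value lower by that size, where 5.03% of all genes did. The second CXCL1 probe, at -0.74 on CS, did pass it, and the bound of CXCL8 leaves that gene open. On CSHA, CXCR4 was higher and CXCL1 lower at that size, beside 11.5% and 11.2% of all genes. These calls depend on the setting, since CXCR4 on CS was as low as 0.53 with quantile normalization, under 1.5-fold, and CXCL1 on CSHA was -0.25 with spike-in scaling.

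**Figure D1:**
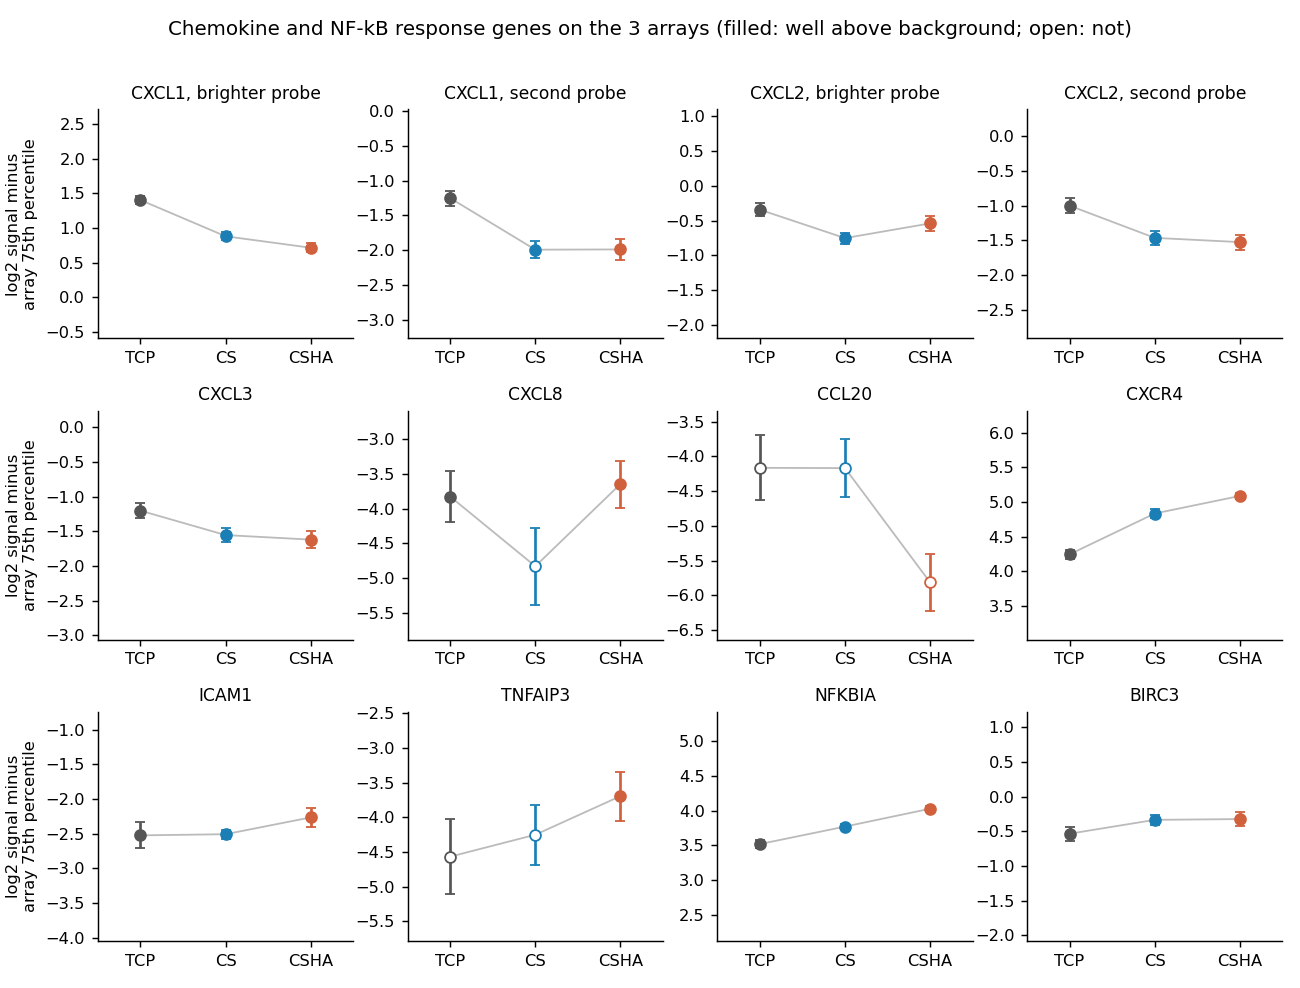
Level of each of the 12 probes on the TCP, CS and CSHA arrays (x axis), as log2 signal minus the array's 75th percentile (y axis, each panel spanning the same range). Points are 1 array each, filled where well above background, and bars are the SD among the probe's own 10 spots or among spots of like brightness. CXCR4 goes from 4.24 on TCP to 5.09 on CSHA, and the brighter CXCL1 probe goes from 1.40 to 0.71.

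CXCL1, a neutrophil attractant that also acts on tumour cells through CXCR2, had a signal of 935 on TCP, 777 on CS and 553 on CSHA by its brighter probe. Relative to TCP it was lower on CS by a log2 difference of -0.52 ± 0.08 and on CSHA by -0.69 ± 0.08, ratios of 0.696 and 0.621. Its second probe read 149, 106 and 84.9, with differences of -0.74 ± 0.16 and -0.74 ± 0.18. TCP was the highest array by both probes, and each difference was more than 2 spreads from 0. CXCL1 on CS was below 94.0% of all genes, and on CSHA below 91.3%.

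CXCL2, a close relative of CXCL1 that macrophages and epithelia make early in inflammation, had a signal of 279 (TCP), 251 (CS) and 232 (CSHA). The differences from TCP were -0.41 ± 0.12 on CS and -0.20 ± 0.14 on CSHA, and the latter was within the scanner error of 0.21. The second probe read 177, 153 and 117, with -0.46 ± 0.14 and -0.53 ± 0.15. The probes of CXCL2 thus gave the same direction on both membranes and sizes on CSHA that differed by more than their spread.

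CXCL3, the third of the GRO ligands, read 154 on TCP, 144 on CS and 110 on CSHA, with differences of -0.35 ± 0.15 and -0.42 ± 0.16. All 5 GRO probes were lower on CS than on TCP, each beyond 2 spreads and beyond the scanner error. All 5 were lower on CSHA as well, 4 of them beyond 2 spreads, but with scaling to spike-in RNA the brighter CXCL2 probe was 0.24 higher on CSHA and CXCL3 0.02 higher. That scaling raised every value on CSHA by 0.43 relative to TCP and put the median of all genes at 0.56. Relative to the median of all genes, each of the 5 probes was lower on both membranes in each of the settings tried. For the brighter CXCL2 probe, the highest of the 5 on CSHA, this relative difference ran from -0.49 to -0.21. The GRO genes are close relatives, and whether signal of one reached the probes of another was not tested, since probe sequences were not compared.

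CXCL8, or interleukin 8, was dim. It read 25.0 on TCP, 14.9 on CS, where it was not well above background, and 27.0 on CSHA. It was at least 1.41-fold lower on CS than on TCP, a bound smaller than its spread of 0.67 on the log2 scale. The difference between CSHA and TCP was 0.18 ± 0.50. CXCL8 therefore did not differ between TCP and CSHA beyond the spread of its spots. CCL20, the ligand of CCR6, had signals of 19.7, 23.5 and 5.99, none well above background, so no difference is given.

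**Figure D2:**
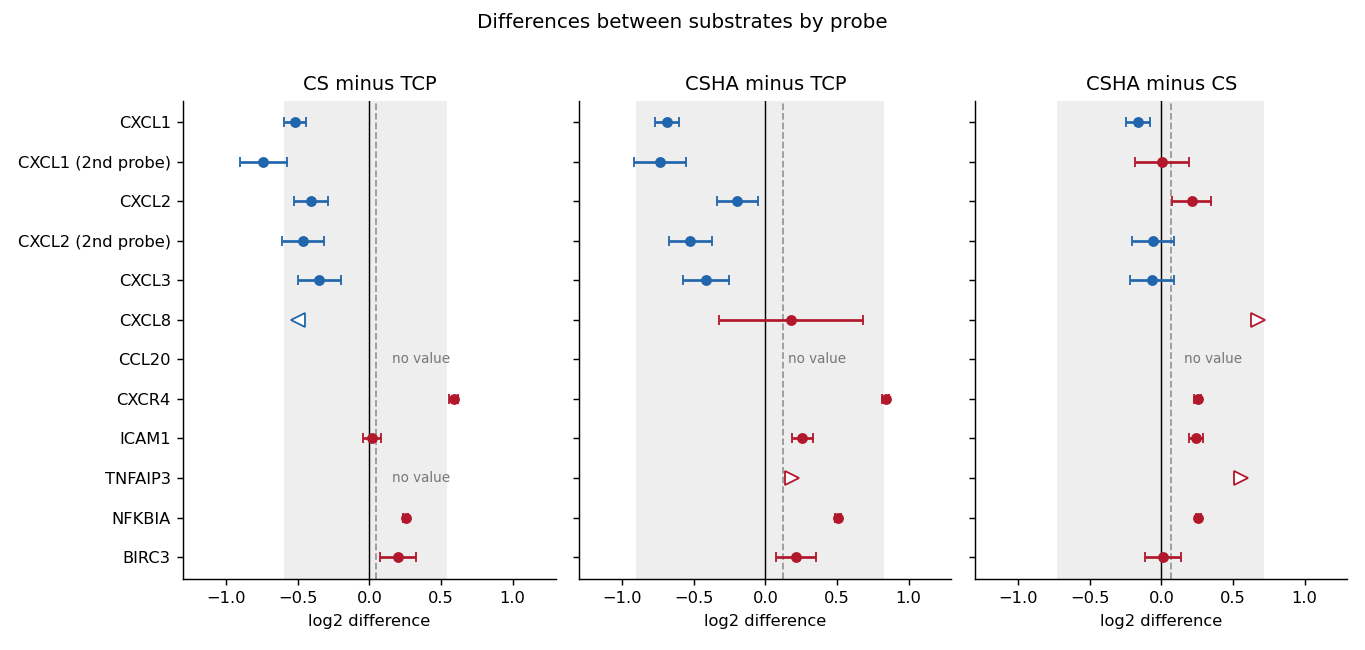
Log2 difference (x axis) of each of the 12 probes (y axis) between CS and TCP, CSHA and TCP, and CSHA and CS. Bars are the spread among spots, and open arrows are lower bounds or, for TNFAIP3 between the membranes, a plain difference with a dim signal. Red is higher and blue lower, the dashed line is the median of all genes and the grey band holds the middle 90% of them. In the first panel the GRO probes lie between -0.74 and -0.35 and CXCR4 at 0.59.

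The GRO genes and CXCL8 belong to a cluster of CXC chemokine genes on chromosome 4, and the other genes of that cluster were read in their order along the chromosome. CXCL5, another ligand of CXCR2, had a signal of 249 on TCP, 225 on CS and 154 on CSHA. It was lower by -0.40 ± 0.13 on CS and -0.62 ± 0.15 on CSHA, so that it shared the direction of the GRO genes with the percentile shift. CXCL6, PF4V1, PF4 and PPBP were not well above background on any array. The measured genes of the cluster besides CXCL8 were thus all below TCP on both membranes with the percentile shift, by -0.69 to -0.20 on CSHA, where spike-in scaling turned CXCL2 and CXCL3 above it.

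**Figure D3:**
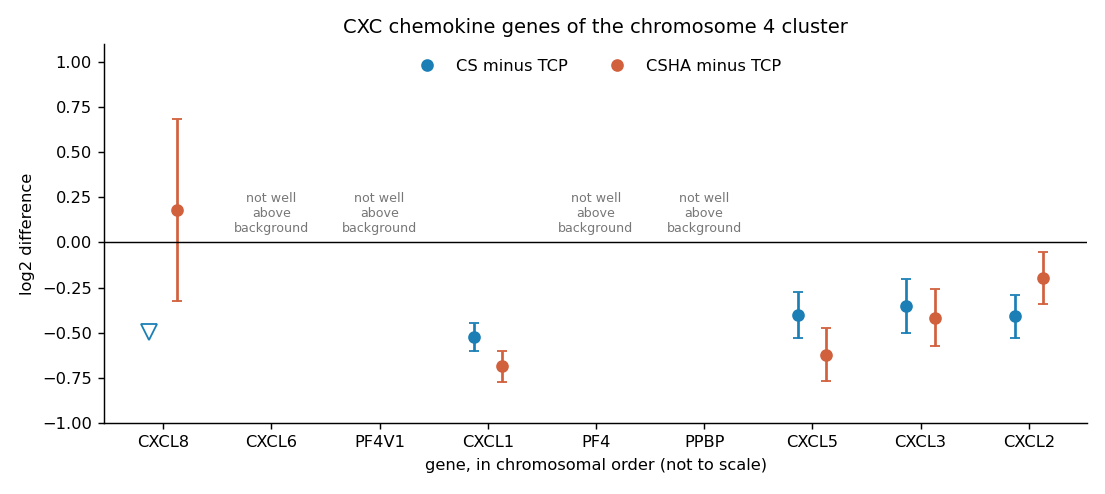
Log2 difference (y axis) of the CXC chemokine genes of the chromosome 4 cluster, by the brighter probe and in chromosomal order (x axis), with bars for the spread among spots and an open triangle for a bound. CXCL1, CXCL5, CXCL3 and CXCL2 lie below 0 on both membranes, from -0.69 for CXCL1 to -0.20 for CXCL2 on CSHA, with CXCL2 and CXCL3 on CSHA above 0 if scaled to spike-ins.

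CXCR4, the receptor of CXCL12 and a gene tied to migration of tumour cells, was a bright probe printed 10 times on each array. Its mean signal read 6709 (TCP), 12039.5 (CS) and 11454 (CSHA), and its level on the shifted log2 scale was 4.24, 4.83 and 5.09. The SD among its 10 spots was between 0.04 and 0.07 on each array. It was higher than on TCP by 0.59 ± 0.03 on CS and by 0.84 ± 0.02, or 1.79-fold, on CSHA. The difference exceeded that of all but 4.04% of genes on CS and of all but 4.65% on CSHA, and over the settings it ran from 0.53 to 0.65 and from 0.73 to 1.28. CXCL12, named here as its ligand after the values were seen, was dim at 41.1, 46.6 and 42.0 and differed by -0.07 ± 0.31 on CS and 0.10 ± 0.32 on CSHA by the brightest of its probes, so that no difference beyond its spread was seen.

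ICAM1, an adhesion molecule that leukocytes bind, was dim but printed 10 times. Its mean signal read 61.6 (TCP), 74.4 (CS) and 70.2 (CSHA). It differed by 0.02 ± 0.06 on CS, where its sign changed between settings, and by 0.26 ± 0.07 on CSHA, or 0.13 relative to the median of all genes. TCP and CS thus could not be separated for ICAM1, while CSHA was above TCP by more than 2 spreads but by less than the scanner error of 0.27, and by 0.13 to 0.69 over the settings.

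NFKBIA, the inhibitor that NF-kB itself induces, had a mean signal over 10 spots of 4053 (TCP), 5762 (CS) and 5497 (CSHA). The levels on the shifted log2 scale were 3.52, 3.77 and 4.03. Its log2 differences from TCP were 0.25 ± 0.02 (CS) and 0.51 ± 0.02 (CSHA), or 0.21 and 0.38 above the median of all genes. NFKBIA thus stood on the other side of TCP from the GRO genes. On CSHA this contrast held relative to the median of all genes in each setting. A link between the promoter matches and these differences was not tested.

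BIRC3, an inhibitor of apoptosis and a ubiquitin ligase of the TNF receptor complex, read 244 on TCP, 335 on CS and 269 on CSHA. Its differences of 0.20 ± 0.13 and 0.21 ± 0.14 were under 2 spreads. TNFAIP3, or A20, which edits ubiquitin chains to end NF-kB signalling, read 14.9, 22.2 and 26.1 and was well above background only on CSHA. The bound of 0.18 against TCP was smaller than its spread of 0.65, so no order of the arrays can be given for this gene.

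Between the membranes, 7 members were higher on CSHA than on CS and 2, CXCL1 and CXCL3, were lower but higher with spike-in scaling, beside 58.5% of 14600 genes that were higher. The median was 0.24 beside 0.07 over all genes. No member had a value of at least 2-fold, beside 2.27% of all genes that were higher and 2.15% that were lower. CCL20 had no value here, and that of CXCL8 was a lower bound, so its difference may be larger. CXCR4 and NFKBIA were higher on CSHA by 0.25 ± 0.02 and 0.26 ± 0.02, beyond the scanner error. ICAM1 was higher by 0.24 ± 0.05, within its scanner error of 0.25, and by as little as 0.087 over the settings. CXCL1 was lower by -0.17 ± 0.09 with its brighter probe and 0.21 higher with spike-in scaling, and its second probe differed by 0.00 ± 0.19. CXCL2 was higher by 0.21 ± 0.14, and its second probe gave -0.06 ± 0.15. CXCL3 differed by -0.07 ± 0.16, or 0.31 with spike-in scaling, and BIRC3 by 0.01. None of the 5 GRO probes differed between the membranes by more than 2 spreads. CXCL8 was at least 1.60-fold higher on CSHA, the 1 member whose value passed 1.5-fold, beside 7.68% of all genes that were higher and 7.33% that were lower, with a spread of 0.65 on the log2 scale. TNFAIP3 was 1.47-fold higher by its plain difference, with a signal on CS that was not well above background. Its spread was 0.56 and its log2 difference ran from 0.30 to 0.93 over the settings. Whether it lay past 1.5-fold is therefore open.

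The other chemokine ligands were 31 genes on the array, of which 14 were well above background on any array. On CS, 13 had a value with a median of 0.12, and 1 was at least 2-fold higher. On CSHA, 13 had a value with a median of 0.33, and 4 of them were well above background on only 1 of the arrays compared. By these values 4 were at least 2-fold higher and 0 lower. The shares of all genes, as given above, were 1.37% higher on CS, and 3.02% higher and 3.98% lower on CSHA. CXCL11 and CXCL10, ligands of CXCR3 known as interferon-induced, were not well above background on TCP. CXCL11 read 16.3 on TCP, 66.5 on CS and 72.7 on CSHA, with lower bounds of 1.21 and 1.66. CXCL10 read 17.6, 48.0 and 51.6, with lower bounds of 0.74 and 1.17, and 0.43 and 0.88 by its second probe.

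CXCL17, a mucosal chemokine, read 90.1 on TCP, 206 on CS and 181 on CSHA, with differences of 0.94 ± 0.17 and 1.07 ± 0.18. CCL15, a ligand of CCR1, read 671, 1326 and 1292, with 0.73 ± 0.08 and 1.01 ± 0.10. These genes were on the opposite side of TCP from the GRO genes on both membranes with the percentile shift. Between the membranes, among the ligands measured on all arrays, the highest was CCL24 at 0.33 ± 0.08 and the lowest CCL27 at -0.55 ± 0.34, while CXCL11 and CXCL10 differed by 0.45 ± 0.23 and 0.43 ± 0.27.

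Of 21 other chemokine receptors, 8 were well above background on any array, with medians of -0.11 on CS and 0.27 on CSHA. CCR6, the receptor of CCL20, read 528 (TCP), 386 (CS) and 332 (CSHA) and was lower by -0.71 ± 0.10 and -0.60 ± 0.11. Among receptors measured on all arrays, CCR10 was the highest at 0.63 ± 0.33 and 0.68 ± 0.34. ACKR4, a scavenging receptor, had plain differences of 1.19 on CS and 0.67 on CSHA, with a signal on TCP that was not well above background. CXCR3 was 0.53 ± 0.14 higher on CSHA than on CS by its brighter probe, and 0.23 ± 0.28 by its second. CCR6 was thus lower on the membranes where CXCR4 was higher.

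Against TCP, the genes of the NF-kB core had medians near that of all genes. All 9 other subunits and inhibitors were well above background on each array, and their median was 0.06 (CS) and 0.12 (CSHA). Of them 0 differed 2-fold, beside 1.37% of all genes higher and 1.92% lower on CS. On CSHA these shares were 3.02% and 3.98%, so 0 of 9 is near them. NFKB2 (p100) was 0.13 ± 0.22 on CS and -0.38 ± 0.25 on CSHA, or 0.06 higher on CSHA with spike-in scaling. Between the membranes the median of the list was 0.24, beside 0.07 over all genes. BCL3, a nuclear IkB protein, was -0.38 ± 0.06 and 0.12 ± 0.07, and NFKBIZ, another, 0.07 ± 0.11 and 0.49 ± 0.11. RELA, the main activating subunit, was named after its values were seen because its probes disagreed: on CSHA they gave -0.28 ± 0.02 and -0.76 ± 0.12, and on CS 0.06 and -0.30. NFKBIB, an IkB protein, was named for the same reason, with 0.49 ± 0.09 and -0.14 ± 0.12 on CSHA.

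Among 27 IKK subunits and upstream adaptors, the median was 0.07 on CS and 0.02 on CSHA. MAP3K14 (NIK), the kinase of the non-canonical branch, was lower by -0.61 ± 0.09 and -0.72 ± 0.11. TRAF2 read 11061 on TCP, 11432 on CS and 5247 on CSHA, a difference of -1.01 ± 0.07 on CSHA, while its second probe gave 0.22 ± 0.15, the opposite direction. The probes of RBCK1 and IRAK1, named after their values were seen, also disagreed on CSHA. RBCK1, a part of the linear ubiquitin ligase, gave -0.16 ± 0.09 by its brightest probe and -1.43 ± 0.09 and -1.31 ± 0.12 by the others, and IRAK1 gave -0.36 ± 0.07 and 0.34 ± 0.09. SHARPIN, of the same ligase, was 0.31 ± 0.07 and 0.78 ± 0.08, IRAK4 was 0.45 ± 0.18 on CS, and TAB1 was -0.85 ± 0.14 on CSHA against CS. BCL10 was well above background only on CS, at 1 spot with a signal of 78.5, which gave a lower bound of 1.45 against TCP.

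Of 21 receptors that signal to NF-kB, 14 had a value on CS and 13 on CSHA, with medians of -0.00 on CS and 0.22 on CSHA. By these values 0 differed 2-fold, which is near the shares of all genes given for the subunits. IL18R1 was the highest at 0.54 ± 0.41 and 0.72 ± 0.43. IL17RA was the lowest on CS at -0.24 ± 0.07 and IL17RC on CSHA at -0.54 ± 0.18, and TNFRSF12A was 0.54 ± 0.09 higher on CSHA than on CS.

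The 42 other known NF-kB targets had a median of -0.07 (CS) and -0.03 (CSHA), below those of all genes, with 10 of 28 higher on CS and 13 of 27 on CSHA, beside 56.8% and 61.7% of all genes. NFKBID, an inducible IkB protein, read 249 on TCP, 211 on CS and 103 on CSHA, with differences of -0.49 ± 0.12 and -1.21 ± 0.15. VCAM1, an adhesion molecule like ICAM1, was well above background only on TCP, at 1 spot with a signal of 58.1, which gave bounds of -1.72 and -1.29. CYLD, a deubiquitinase that restrains NF-kB, was 0.44 ± 0.34 and 0.91 ± 0.34. GADD45B was 0.77 ± 0.09 higher on CSHA than on CS. The targets thus moved in both directions, as the members did.

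**Figure D4:**
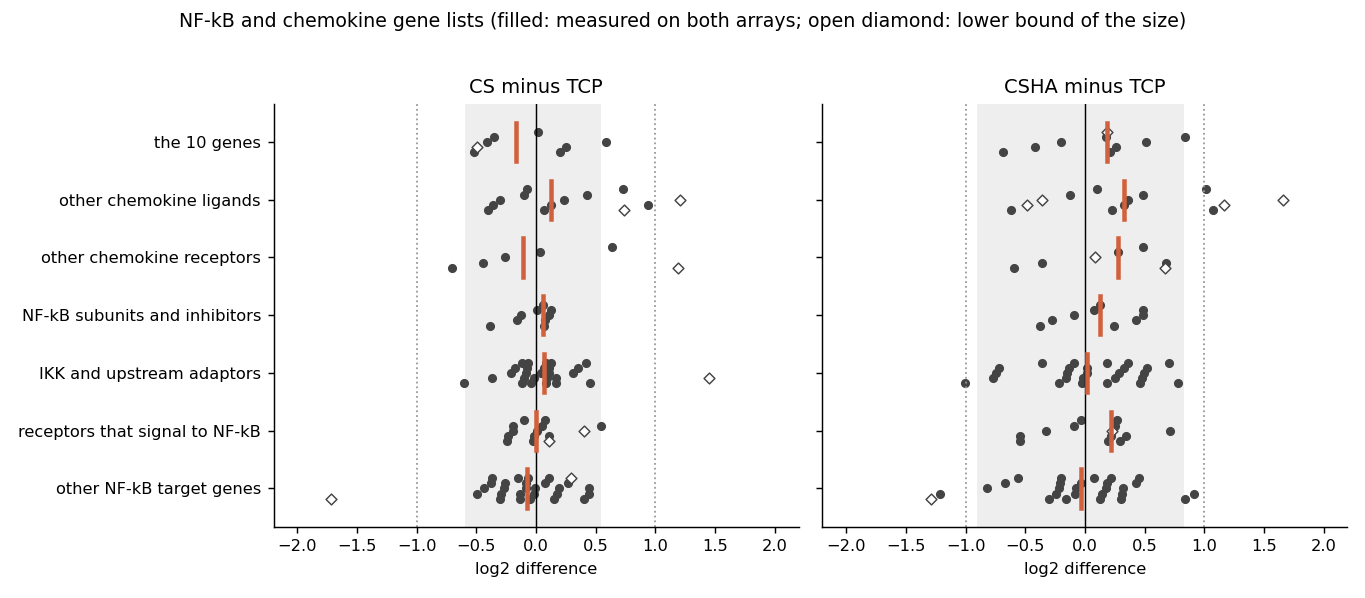
Log2 differences (x axis) on CS and on CSHA against TCP of the 10 genes and of 6 related lists (y axis). Points are genes by the brightest probe, open diamonds are lower bounds of the size, orange bars are medians, dotted lines mark 2-fold and the grey band holds the middle 90% of all genes. The medians of the 10 genes lie at -0.17 and 0.18, and those of the NF-kB subunits at 0.06 and 0.12.

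The epithelial identity given by the labels was checked on 12 colon epithelial markers, and all 12 were well above background on each array. Of 11 leukocyte markers on the array, 4 were well above background on all arrays. The summed signal of all 11, dim ones included, was 1290 (TCP), 2041 (CS) and 2245 (CSHA). Of the 6 markers with a value, 5 were higher on each membrane, with medians of 0.46 and 0.96. Most of the sum was the monocyte marker CD14, at 834, 1408 and 1633, and CD68, a macrophage marker, differed by 0.80 ± 0.15 and 1.01 ± 0.17. The red cell gene HBB differed by 0.75 ± 0.05 and 0.91 ± 0.05, and the T cell marker CD3D by 0.41 and 1.15. The CD3D signal on TCP was not well above background. CD3E, another T cell marker, was the 1 lower marker, by a bound of -2.78 on CS and by -1.75 ± 0.32 on CSHA. PTPRC, which marks all leukocytes, differed by 0.17 ± 0.31 and 0.05 ± 0.35. The B cell marker MS4A1 and the myeloid marker ITGAM were not well above background. Of 12 endothelial and stromal markers, 3 were well above background on all arrays, and the collagens of the list were not well above background on any. The signals of all 12, dim ones included, summed to 226, 192 and 266. PDGFRB, a pericyte and fibroblast receptor, read 5.97, 5.18 and 90.3, with a lower bound of 1.98 on CSHA against TCP. The part of these markers in the differences was not tested, and in RNA of a whole culture a smaller share of expressing cells and less RNA per cell cannot be told apart.

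**Figure D5:**
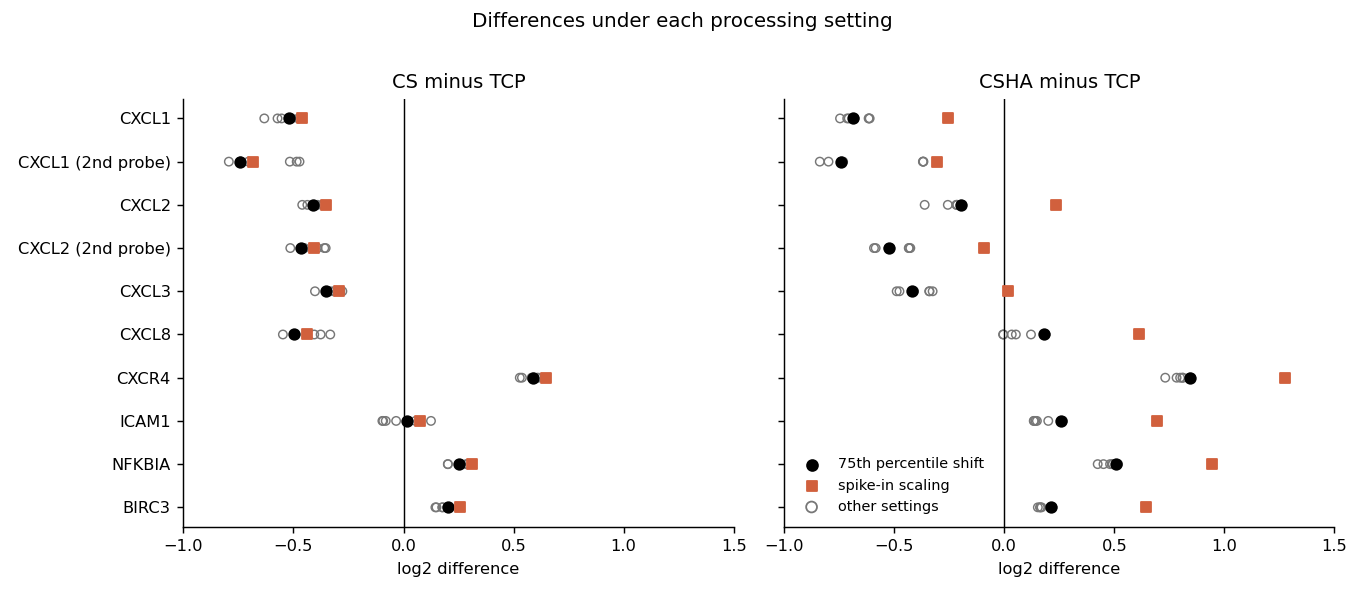
Log2 differences (x axis) of the probes with a value against TCP on CS and CSHA (y axis, TNFAIP3 and CCL20 left out), with the percentile shift (black), with spike-in scaling (orange squares) and in the other settings (open circles, the setting without a filter left out). On CSHA the spike-in scaling moves each point by 0.43, which puts the brighter CXCL2 probe at 0.24 and CXCL3 at 0.02, while CXCL1 stays below 0 and CXCR4 reaches 1.28.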

How the data were processed

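RNA of HT29 cells from TCP, CS and CSHA was hybridized to 1 Agilent single-colour array each. The authors deposited each spot's intensity as the scanner software gave it (Feature Extraction 10.7.3.1 in the file headers, while the methods name another version), with its flags. They also deposited a table of log2 values. Its differences between arrays equal those of the log2 median signal plus a constant of 0.25 on CS and -0.06 on CSHA, its column medians are 0.01, -0.13 and 0.04, and the offset of each spot has an unknown origin. Both comparisons against TCP share an array.

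The processed signal, corrected for background by the software, had a floor of 1 (0 spots lay below it) and was log2-transformed, and the array's 75th percentile was subtracted, taken over 50599 probes that were not controls. Spots flagged as outliers, 264 to 359 per array, were left out, and spots of a probe were averaged. Between 48.6% and 51.1% of probes were well above background, 0 spots were saturated, and the number of arrays limits the precision. Accessions were matched through a RefSeq table for GRCh38.p14. The brightest probe stood for a gene.

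All 10 members were named with every probe. From 6 related lists the genes at least 2-fold different, and the highest and lowest of those measured on all arrays, were named, with exceptions stated. Members and lists were chosen with earlier results of these data known. In all, 11 alternatives were tried besides 1.5-fold and 3-fold thresholds. The files have no mean signal, so normexp with an offset of 50 used the median signal. The calculation was tested on simulated data. Of the table's columns, 0 had no sample. Tools were Python 3.11.15 with biopython 1.88, pandas 2.3.3, matplotlib 3.10.9 and numpy 2.4.6, and limma 3.58.1 in R 4.3.3.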

Additional observations from a re-analysis of the deposited data

How the results depend on the processing

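No paired analysis was possible because each condition had 1 array and no replicate number. Of 72 values for the 10 genes as a group, 60 stayed within their spread or 1.5 times the count, 10 moved further and 2 changed sign, and of 1398 values for single genes, probes and lists 1151 stayed, 239 moved and 8 changed sign.

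The median on CS, -0.17, became 0.00651 without a filter on dim probes and 0.017 over the 7 genes measured on both arrays, so its sign rests on how dim genes such as CXCL8 are treated. With spike-in scaling the median became 0.62 on CSHA against TCP, beside 0.56 over all genes, and 0.62 against CS, beside 0.45. In each, 1 gene passed 2-fold, and no share of all genes is given for that setting. At 1.5-fold, 1 gene passed on CS, 2 on CSHA and 1 between the membranes, each by the brightest probe. Without a filter 1, 1 and 2 genes passed 2-fold, again with no share of all genes given. These were CXCL8 on CS, CCL20 on CSHA, and both between the membranes. CCL20 was not well above background on any array and CXCL8 was not on CS. Each of these differences thus used a signal that was not well above background. The medians of the other ligands and receptors on CSHA became -0.016 and -0.028, beside 0.009 over all genes.

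Spike-in scaling also turned CXCL2 to 0.24, CXCL3 to 0.016 and NFKB2 to 0.057 on CSHA against TCP, and CXCL1 to 0.21, CXCL5 to 0.15 and MAP3K14 to 0.26 on CSHA against CS. Whether RNA content or spike-in input sets that shift was not tested. On CS against TCP, the 5 GRO probes, CXCR4, NFKBIA and BIRC3 kept their sign in each alternative that gave a value. CXCL8, CCL20 and TNFAIP3 lay near the lowest signal well above background, 24.1 on TCP, 21.1 on CS and 22.6 on CSHA, which limits what can be said of them.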
